A study of Arabidopsis thaliana with 12 samples.

Results

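Jasmonate is the wound and defence hormone of plants. It is made from linolenic acid of chloroplast membranes: lipoxygenases of the LOX family add oxygen to the fatty acid, allene oxide synthase (AOS) turns the product into an unstable epoxide, allene oxide cyclases (AOC) close its ring to give OPDA, and the peroxisomal reductase OPR3 acts on OPDA before its side chain is shortened by beta-oxidation. Many of these genes are induced by the hormone itself through the transcription factor MYC2, which binds the G-box and related hexamers and works together with Mediator. The genes described here are the 10 of the core pathway, namely *LOX2*, *LOX3*, *LOX4*, *LOX6*, *AOS*, *AOC1*, *AOC2*, *AOC3*, *AOC4* and *OPR3*, chosen by gene identifier among the 22870 genes with a counted region of either chromatin mark.

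Chromatin immunoprecipitation and sequencing (ChIP-seq) was carried out on whole rosettes of 21-day-old Arabidopsis plants, ecotype Col-0. The groups were *ref4-3*, a semidominant allele of the Mediator tail subunit gene *MED5b* that changes 1 amino acid of the protein, and wild type. Each genotype had 2 biological replicates for the histone variant H2A.Z and 2 for H3K27me3, the trimethylation of histone H3 lysine 27 laid down by Polycomb proteins at repressed genes. All plants were otherwise untreated, and the 4 input samples were not analysed here. H2A.Z replaces canonical H2A in nucleosomes, and within plant genes its spread over the gene body is known from genes that are inducible and held low.

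The counts are sequenced fragments per region, where a region is the part of a gene, at least 200 bp long, that lies under an enriched stretch (island) of either genotype. The libraries held between 7848342 and 8863116 fragments in *ref4-3* and between 9070114 and 10128759 in wild type for H2A.Z, and between 5805781 and 8199019 in *ref4-3* and between 7706433 and 8466471 in wild type for H3K27me3. Values are given as CPM, the usual depth-scaled count, after trimmed-mean scaling of the 4 libraries of a mark. Log2 fold changes are *ref4-3* over wild type with the standard error (SE) of the fit, and edgeR FDR denotes the Benjamini-Hochberg adjusted p of edgeR's exact test over all regions of the mark. A region was called at an FDR below 0.05 and a fold change above 1.2, and a gene when at least 1 of its regions was. H3K27me3 regions were present at all 6 genes chosen as silent in rosettes (*AG*, *SEP3*, *AP3*, *WUS*, *LEC2* and *FUS3*), at 145 to 228 CPM per kb in wild type, but also at the leaf genes *RBCS1A*, *CAB1* and *RCA*, at 142, 113 and 24.8 CPM per kb. The presence of a region therefore did not separate silent from active genes. An amino acid substitution leaves no trace in these counts, so the genotype labels could not be checked against it. Rosettes mix many cell types, and a change in some cells cannot be told apart from a change in the share of those cells.

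All 10 genes carried H2A.Z, in 15 regions that held 51 to 825 fragments per library, while 4 carried H3K27me3, in 5 regions that held 99 to 441. H2A.Z was called decreased in *ref4-3* at *LOX3*, *LOX4*, *AOC1* and *OPR3*, which is 4 of 10 genes, against 1.79% of all 22249 genes with H2A.Z, and at none was it called increased, against 2.9% of all genes. By region it was called decreased at 6 of 15, against 1.63% of all 24960 regions. The 15 regions were longer than others, at a median of 1200 bp, against 800 bp, which can ease a call. H3K27me3 was called increased at *LOX4*, *AOC1* and *AOC3*, which is 3 of the 4 genes that carried it, against 5.52% of all 8286 genes with H3K27me3, and at none was it called decreased, against 7.7% of all. For H2A.Z the median log2 fold change was -0.25 over the 15 regions and 0.00 over all 24960 regions. For H3K27me3 it was 0.37 over the 5 regions and 0.00 over all 8663. Both *ref4-3* libraries lay below both wild-type libraries at 12 of the 15 H2A.Z regions, against 24.2% of all regions, and above them at 1, against 24% of all. At the H3K27me3 regions they lay above at 5 of 5, against 31.4% of all, and below at 0, against 30.5% of all. These 5 regions were weak in wild type, between percentiles 0.25 and 9.37 of all H3K27me3 regions in CPM per kb. They were not compared with regions of a like level.

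These counts rest in part on how the regions arose. A region found under an island of 1 genotype alone tends to lean towards that genotype: of the 1366 H2A.Z regions from wild-type islands only, 6.52% were called decreased and 0 increased, and of the 164 H3K27me3 regions from *ref4-3* islands only, 51.2% were called increased and 0 decreased. The H2A.Z regions of *AOC1* and *OPR3* came from wild-type islands only, and the H3K27me3 regions of *AOC2* and *AOC3* and the second of *LOX4* came from *ref4-3* islands only. With regions under islands of both genotypes alone, a setting chosen after the data were seen, 2 of 8 genes were called decreased for H2A.Z (*LOX3* and *LOX4*) and 2 of 2 increased for H3K27me3 (*LOX4* and *AOC1*). The shares over all are of regions, not of genes. Among all regions under islands of both genotypes, 1.41% were called decreased for H2A.Z and 4.78% increased for H3K27me3. By region, the called ones were both of *LOX3* and both of *LOX4* among 13 H2A.Z regions. For H3K27me3 they were the first of *LOX4* and that of *AOC1*, the only 2. In this setting any overlap with an island sufficed, so part of the lean can remain, which was not tested. The H3K27me3 region of *AOC1* lay under merged islands over 1338 bp in *ref4-3* and 338 bp in wild type. The first of *LOX4* was covered the other way, over 600 bp in *ref4-3* and 800 bp in wild type. For H2A.Z, the second region of *LOX3* had 600 bp in *ref4-3* and 1400 bp in wild type.

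The lipoxygenases open the pathway. *LOX3* (AT1G17420), which with *LOX4* is known for its role in male fertility and in flower and defence responses, had the lowest H2A.Z relative to wild type of the 10 genes. Its first H2A.Z region (chr1:5977401-5979200, TAIR10, plus strand) began 78 bp after the gene start and was 68.9% coding and 24.9% intron. It held 56.0 and 42.2 CPM in *ref4-3*, against 80.4 and 81.8 CPM in wild type. Both *ref4-3* libraries were far below the wild-type pair, whose libraries lay close together, and *ref4-3* replicate 2 was the lower of its pair. The log2 fold change was -0.71 (edgeR FDR = 4.79e-19, SE 0.0739), which ranked 13 from the lowest among all 24960 regions. The second region (chr1:5979801-5981200), in the later part of the gene, held 40.4 and 27.2 CPM in *ref4-3*, against 54.6 and 53.6 CPM in wild type. Both *ref4-3* libraries again lay below the wild-type pair, and *ref4-3* replicate 2 was again the lower of its pair. The log2 fold change was -0.66 (edgeR FDR = 1.18e-11, SE 0.0868), at rank 26. Leaving out each library in turn moved these values between -0.94 and -0.53 in the first region and between -0.99 and -0.42 in the second, and both stayed called. DESeq2, which called 0.0681% of all regions decreased, called neither (adjusted p = 0.097 and 0.732). The merged *ref4-3* island over the second region covered 600 of its 1400 bp, and the merged wild-type island all of it. This shortening was in 1 replicate only, as the island of *ref4-3* replicate 1 covered all 1400 bp and replicate 2 had none there, while both wild-type lists covered the whole region. *LOX3* had no H3K27me3 region, and the nearest island of that mark lay 35923 bp away in both genotypes.

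*LOX4* (AT1G72520), whose coding sequence is 80.7% identical to that of *LOX3* over 2752 aligned bp, moved in the same direction by less. Its first H2A.Z region (chr1:27308513-27310200, plus strand) held 50.6 and 44.5 CPM in *ref4-3*, against 58.1 and 60.7 CPM in wild type, a log2 fold change of -0.32 (edgeR FDR = 0.00281, SE 0.0770). Its second region (chr1:27310601-27312600) held 58.1 and 48.8 CPM in *ref4-3*, against 61.8 and 67.7 CPM in wild type, a log2 fold change of -0.27 (edgeR FDR = 0.0106, SE 0.0745). In neither region did the genotypes overlap, but the second lay close to the fold threshold, and its call was lost with library totals as the scale (-0.26) and with loess offsets (-0.25). Without wild-type replicate 1, without wild-type replicate 2 or without *ref4-3* replicate 2, neither region was called. The difference in change between *LOX3* and *LOX4* was not tested. No counted region of the 10 genes had an alignment elsewhere in the genome of at least 95% identity over at least 100 bp. More identical stretches inside longer alignments, such as that of *AOC1* with *AOC2* (87.5% over 656 bp), were not examined. Whether every fragment was assigned to the right gene was not tested.

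*LOX4* was also the only lipoxygenase among the 10 genes with H3K27me3. Its H3K27me3 regions lay in the later part of the gene, inside the second H2A.Z region. The first (chr1:27310601-27311600) held 33.9 and 36.4 CPM in *ref4-3*, against 27.7 and 26.8 CPM in wild type, a log2 fold change of 0.37 (edgeR FDR = 0.00887, SE 0.114). The second (chr1:27312001-27312400), under a *ref4-3* island only, held 20.5 and 17.9 CPM in *ref4-3*, against 12.8 and 15.2 CPM in wild type, a log2 fold change of 0.44 (edgeR FDR = 0.0217, SE 0.154). Both *ref4-3* libraries exceeded both wild-type libraries in each region. H2A.Z was lower in *ref4-3* over the second H2A.Z region as a whole. Its change within the H3K27me3 regions alone was not measured. The calls of both regions were lost without either wild-type library, that of the first also without *ref4-3* replicate 2 and that of the second also without *ref4-3* replicate 1.

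The promoter windows of *LOX3* and *LOX4* are shown because H2A.Z was called decreased at both of these closely related genes. The first H2A.Z island of *LOX4* began 88 bp after the gene start in every list of both genotypes except the merged wild-type list, where it began 112 bp before it. The windows run from 250 bases before to 50 bases after the gene start, in the TAIR10.1 assembly and the RefSeq annotation, and capitals mark the hexamers CACATG and AACGTG on either strand.
LOX3, chr1:5977073-5977372, plus strand: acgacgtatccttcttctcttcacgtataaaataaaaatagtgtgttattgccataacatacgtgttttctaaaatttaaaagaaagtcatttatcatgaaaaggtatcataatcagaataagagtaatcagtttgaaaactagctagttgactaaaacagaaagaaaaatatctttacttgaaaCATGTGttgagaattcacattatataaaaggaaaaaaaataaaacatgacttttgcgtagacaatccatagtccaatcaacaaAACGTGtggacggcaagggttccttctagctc
LOX4, chr1:27308263-27308562, plus strand: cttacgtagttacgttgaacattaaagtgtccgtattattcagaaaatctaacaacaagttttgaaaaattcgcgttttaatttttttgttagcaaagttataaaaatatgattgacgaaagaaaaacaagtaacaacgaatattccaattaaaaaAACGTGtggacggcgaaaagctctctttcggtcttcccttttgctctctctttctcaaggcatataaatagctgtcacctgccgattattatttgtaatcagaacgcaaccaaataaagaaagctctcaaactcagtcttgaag
Both windows hold AACGTG, its first base at position 18 after the start in *LOX3* and at position -94 in *LOX4*, counted from 0 at the first base of the gene. The hexamer sits in a run of 16 bases, aaaacgtgtggacggc, that the windows have in common and that no other of the 27443 protein-coding windows holds. *LOX3* also holds CACATG, written as CATGTG on this strand, at position -65.

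Of the 10 genes, only *AOS* held the palindromic G-box CACGTG, at position -6, which 7.68% of all protein-coding windows hold. CACATG was found in *LOX2*, *LOX3* and *AOC4*, against 12.9% of all windows, and AACGTG in *LOX3*, *LOX4*, *AOC1* and *AOC2*, against 8.95%. *LOX6*, *AOC3* and *OPR3* held none of these hexamers. No matches of these hexamers overlap each other in the 10 windows, and a match is a description of the sequence, not of a bound site. The genes with called H2A.Z were thus found both among those with a hexamer (*LOX3*, *LOX4* and *AOC1*) and among those without (*OPR3*).

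*LOX2* (AT3G45140), the lipoxygenase that makes much of the jasmonate of wounded leaves, lay just short of a call. Its first H2A.Z region (chr3:16525401-16527000, plus strand) held 54.2 and 58.4 CPM in *ref4-3*, against 67.6 and 67.2 CPM in wild type. The genotypes did not overlap, and the log2 fold change of -0.26 (edgeR FDR = 0.0139, SE 0.0728) passed the FDR but was just under the fold threshold. Its second region (chr3:16528601-16529200) held 18.9 and 16.9 CPM in *ref4-3*, against 20.3 and 19.7 CPM in wild type, a log2 fold change of -0.16 (edgeR FDR = 0.539, SE 0.123). *LOX6* (AT1G67560), known for the fast rise of jasmonate in cells near the veins, had 3 H2A.Z regions with log2 fold changes of -0.04, -0.10 and -0.13 (edgeR FDR = 0.944, 0.629 and 0.419). Its regions held 21.5 to 47.9 CPM in *ref4-3* and 23.4 to 51.1 CPM in wild type, and the libraries of the first region overlapped between genotypes. The value of that region turned to 0.08 without *ref4-3* replicate 1. Neither gene carried H3K27me3, whose nearest merged island lay 1849 bp from *LOX2* in both genotypes and 28020 bp from *LOX6* in *ref4-3*, against 27820 bp in wild type.

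**Figure D1:**
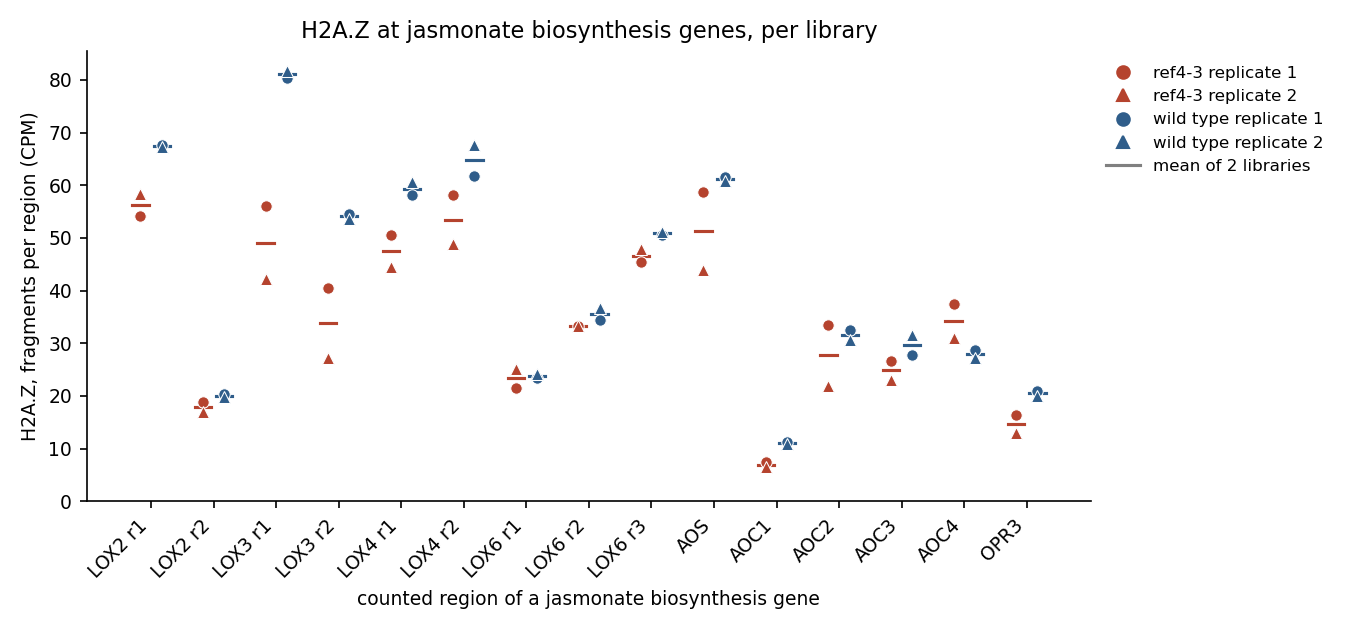
H2A.Z in CPM at the 15 regions of the 10 jasmonate biosynthesis genes (r1 to r3 number the regions of a gene), with each library as a point, *ref4-3* in red to the left of wild type in blue, and the mean of 2 libraries as a bar. The *ref4-3* points lie below the wild-type points at 12 of 15 regions, most widely at *LOX3*, and above them only at *AOC4*.

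*AOS* (AT5G42650), the gene for the next enzyme, had 1 H2A.Z region (chr5:17097801-17099400, minus strand) that covered 78.7% of the gene. It held 58.7 and 43.8 CPM in *ref4-3*, against 61.5 and 60.9 CPM in wild type. The groups did not overlap, but the *ref4-3* libraries differed from each other by more than replicate 1 differed from wild type. The log2 fold change was -0.24 (edgeR FDR = 0.0296, SE 0.0764) and was not called, and it ranged between -0.48 and -0.06 when each library was left out in turn. The gene carried no H3K27me3 island within 12164 bp in the merged lists of either genotype.

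The cyclases close the ring that all jasmonates share. *AOC1*, *AOC2* and *AOC3* lie next to each other on chromosome 3 on the plus strand, and *AOC4* lies on chromosome 1. *AOC1* (AT3G25760) had a short H2A.Z region of 200 bp (chr3:9404001-9404200) in its coding sequence, with 7.37 and 6.52 CPM in *ref4-3*, against 11.2 and 10.8 CPM in wild type. These are 66 and 51 fragments in *ref4-3*, against 101 and 109 in wild type, the fewest of the 15 regions. The log2 fold change was -0.65 (edgeR FDR = 0.00869, SE 0.176), and the region came from the merged wild-type list alone and was in neither replicate list. The call was lost without *ref4-3* replicate 2 or without either wild-type library. *AOC2* (AT3G25770) held 33.5 and 21.8 CPM in *ref4-3*, against 32.5 and 30.6 CPM in wild type, in its H2A.Z region (chr3:9406801-9408000). Here replicate 1 of *ref4-3* exceeded both wild-type libraries and replicate 2 was below them, and the log2 fold change of -0.17 (edgeR FDR = 0.342, SE 0.102) turned to 0.09 without *ref4-3* replicate 2. *AOC3* (AT3G25780) held 26.7 and 23.0 CPM in *ref4-3*, against 27.8 and 31.6 CPM in wild type (chr3:9409401-9410400), a log2 fold change of -0.25 (edgeR FDR = 0.148, SE 0.105).

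*AOC4* (AT1G13280) was the exception among the 10 genes. Its H2A.Z region (chr1:4547601-4548600, plus strand) held 37.4 and 31.0 CPM in *ref4-3*, against 28.6 and 27.3 CPM in wild type, so that both *ref4-3* libraries were above both wild-type libraries. The log2 fold change of 0.30 (edgeR FDR = 0.0515, SE 0.0980) missed the threshold. It passed with edgeR's quasi-likelihood F test (adjusted p = 0.0405), which called 2.77% of all regions increased, with library totals as the scale (edgeR adjusted p = 0.0442), where 2.88% were, and without *ref4-3* replicate 2 (edgeR adjusted p = 0.00398). An H3K27me3 island overlapped the end of *AOC4* by 94 bp in every list of both genotypes, which is under the 200 bp needed for a region.

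*OPR3* (AT2G06050), the reductase whose loss makes plants male sterile, closes the core pathway. Its H2A.Z region (chr2:2359401-2360000, minus strand) lay in coding sequence 2375 to 2974 bp after the gene start. It held 16.4 and 13.03 CPM in *ref4-3*, against 21.0 and 20.0 CPM in wild type, with both *ref4-3* libraries below. The log2 fold change was -0.47 (edgeR FDR = 0.0118, SE 0.129) and ranked 93 from the lowest. The nearest H2A.Z island of the merged *ref4-3* list lay 3514 bp away, and the call was lost without *ref4-3* replicate 2 (edgeR adjusted p = 0.187) or without either wild-type library (0.21 and 0.143).

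In the *ref4-3* H2A.Z pair, replicate 2 was the lower library at 11 of these 15 regions, against 49.984% of all regions, and the median log2 ratio of replicate 2 over replicate 1 was -0.22 over the 15 regions and 0.00 over all. The wild-type pair gave a median ratio of -0.01. The part of this replicate in the H2A.Z result was not tested beyond leaving it out, which left 2 genes called decreased, *LOX3* and *LOX2*. Leaving out *ref4-3* replicate 1 gave 6 called genes, and leaving out wild-type replicate 1 or wild-type replicate 2 gave 1 each. DESeq2 called 0 of the 10 genes, with 7 of 15 regions at an unadjusted p under 0.05, against 5.03% of all regions. For edgeR's exact test these were 10 of 15, against 18.3% of all.

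The merged islands define the counted regions and come from the same libraries, so they describe the same data and are no independent support. Merged H2A.Z islands overlapped 8 of the 10 genes by at least 200 bp in *ref4-3* and 10 in wild type. The replicate lists gave 8 and 6 genes in *ref4-3*, against 8 and 9 in wild type. Merged H3K27me3 islands overlapped 4 genes in *ref4-3* and 2 in wild type, and the replicate lists gave 4 and 3 in *ref4-3*, against 3 and 2 in wild type. Of all 24960 H2A.Z regions, 1115 came from *ref4-3* islands only and 1366 from wild-type islands only. Of all 8663 H3K27me3 regions, these were 164 and 430. The share of all genes under an island of each genotype is not given here. On *AOC1* the merged H3K27me3 island covered 1338 bp of the gene in *ref4-3* and 338 bp in wild type, while the replicate lists gave 338 and 938 bp in *ref4-3* and 338 bp in each wild-type list. On *AOC3* it covered 1000 bp in the merged and both replicate lists of *ref4-3* and none in those of wild type, where the nearest lay 911 bp away. On *AOC2* it covered 1000 bp in the merged *ref4-3* list and none in the merged wild-type list, but the replicate lists crossed the genotypes, with 1000 and 0 bp in *ref4-3* and 532 and 0 bp in wild type. Depth differed between libraries and was not made equal for the islands, and its part in these lists was not tested.

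**Figure D2:**
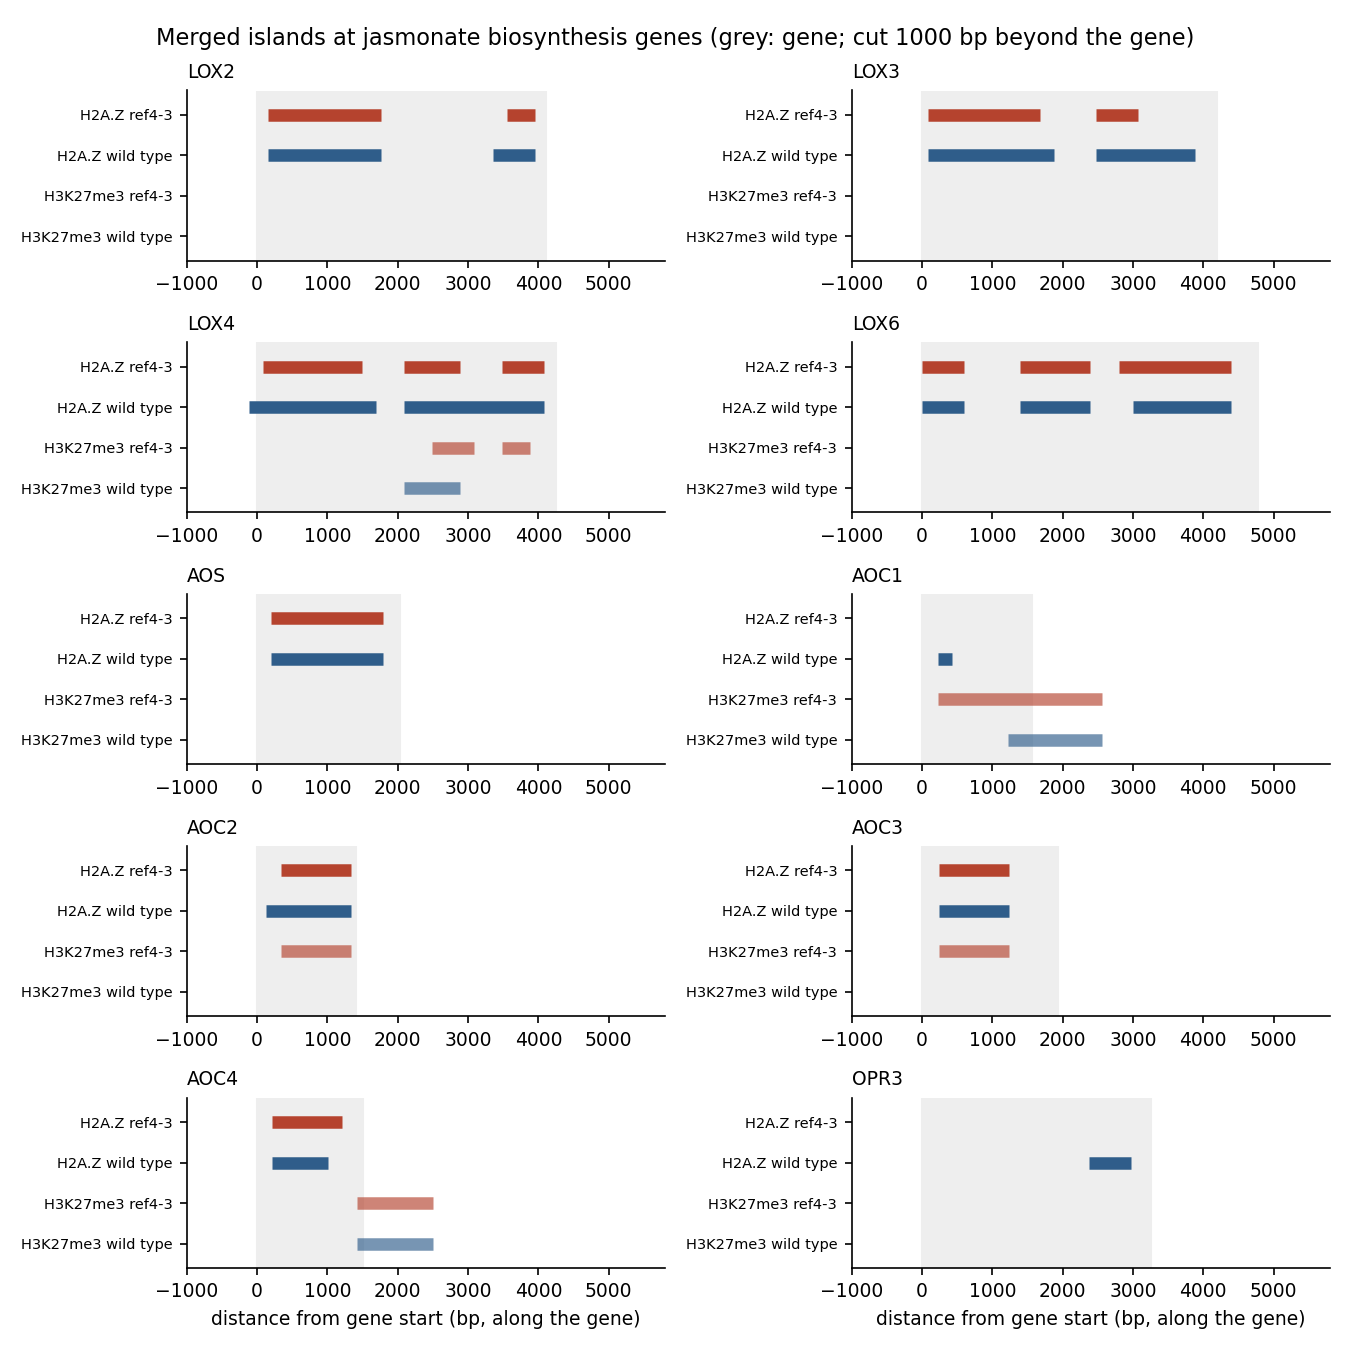
Merged islands of H2A.Z (upper lanes) and H3K27me3 (lower lanes) along each of the 10 genes, *ref4-3* in red above wild type in blue, against the distance from the gene start in bp, with the gene in grey. In these merged lists H2A.Z islands of *ref4-3* are shorter over the end of *LOX3* and missing at *AOC1* and *OPR3*. At *LOX3* the island spans 600 bp, against 1400 bp in wild type, but 1400 bp in *ref4-3* replicate 1. That of *AOC1* is in neither wild-type replicate list either. Merged H2A.Z islands of *ref4-3* are also shorter at *LOX4*, at *AOC2*, over the first part of *LOX3* and over the end of *LOX2*. They are longer than in wild type at *AOC4* (1000 against 800 bp) and in the last part of *LOX6* (1600 against 1400 bp). H3K27me3 islands appear in *ref4-3* alone at *AOC2*, at *AOC3* and in the last part of *LOX4*. Those of *AOC3* and *LOX4* were so in every replicate list, that of *AOC2* was not.

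The *AOC* cluster held the largest H3K27me3 change of the 10 genes. In the H3K27me3 region of *AOC3* (chr3:9409401-9410400, 72.9% coding and 27.1% intron), *ref4-3* held 39.8 and 37.9 CPM, against 23.5 and 22.7 CPM in wild type. The replicates were close to each other and the genotypes far apart. The log2 fold change of 0.75 (edgeR FDR = 6.46e-09, SE 0.116) ranked 33 from the highest among 8663 regions, but the region entered through a *ref4-3* island only, a class whose median was 0.39. It stayed between 0.72 and 0.79 with each library left out and was the only one of the 5 that DESeq2 called, against 2.19% of all regions called increased by it. The H2A.Z region of *AOC3* is the same stretch of 1000 bp. *AOC1* held 50.8 and 54.3 CPM in *ref4-3*, against 36.9 and 44.2 CPM in wild type (chr3:9404001-9405338), a log2 fold change of 0.37 (edgeR FDR = 0.00164, SE 0.0991). Its call was lost without wild-type replicate 1, the lower of that pair (0.25, edgeR adjusted p = 0.256), which left *AOC3* as the 1 gene called increased. *AOC2* held 31.5 and 23.4 CPM in *ref4-3*, against 22.6 and 20.5 CPM in wild type (chr3:9407001-9408000), a log2 fold change of 0.33 (edgeR FDR = 0.0599, SE 0.140) that was not called. It depended on the library, at 0.12 without *ref4-3* replicate 1 (edgeR adjusted p = 0.545) and 0.55, then called, without *ref4-3* replicate 2 (edgeR adjusted p = 0.00109), and it was also called with loess offsets (edgeR adjusted p = 0.0298).

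**Figure D3:**
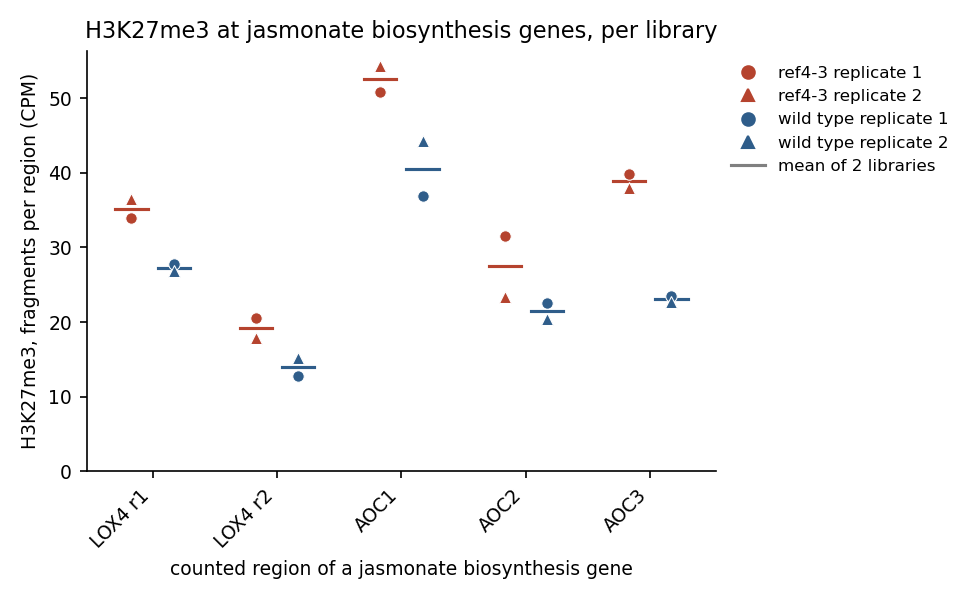
H3K27me3 in CPM at the 5 regions of *LOX4*, *AOC1*, *AOC2* and *AOC3*, with each library as a point, *ref4-3* in red to the left of wild type in blue, and the mean of 2 libraries as a bar. Both *ref4-3* points lie above both wild-type points at every region, with the widest gap at *AOC3*.

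The level of H3K27me3 was also set against other regions. Per length, the 5 regions held 21.5 to 34.9 CPM per kb in wild type, which lay between percentiles 0.25 and 9.37 of all H3K27me3 regions, whose median was 73.4 CPM per kb. For 3 of the 5, those of *AOC2* and *AOC3* and the second of *LOX4*, no merged wild-type island was found, which favours a low wild-type level. The first region of *LOX4* (27.3 CPM per kb) and that of *AOC1* (30.3 CPM per kb) lay under islands of both genotypes, that of *AOC1* over 338 of 1338 bp in wild type. In *ref4-3* they held 27.5 to 47.9 CPM per kb. H2A.Z of the 15 regions was close to that of other regions in wild type, at a median of 35.2 CPM per kb, against 37.2 CPM per kb over all regions. In wild type the lowest H2A.Z per length was at *AOC2* (26.3 CPM per kb) and the highest at *AOC1* (54.9 CPM per kb).

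*AOC1*, *AOC2* and *AOC3* share much of their sequence. The coding sequences of *AOC1* and *AOC2* are 90.3% identical, *AOC1* and *AOC3* 82.7%, and *AOC2* and *AOC3* 82.4%. The promoter windows of *AOC1* and *AOC2* have a run of 26 bases in common, shown because these neighbours share it outside their coding sequence. It begins at position -117 in *AOC1* and -19 in *AOC2*, in TAIR10.1, and no other protein-coding window holds it.
AOC1 and AOC2, shared run, plus strand: tgtagtttagggaccggccaaaagta
No such run of more than 9 bases was found between *AOC3* and the other cyclases.

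Nearby genes were read beside the cluster. AT3G25750, which lies 1691 bp from *AOC1*, had a log2 fold change of 0.19 for H3K27me3 (edgeR FDR = 0.00678, SE 0.0562), under the fold threshold, and -0.09 for H2A.Z (edgeR FDR = 0.64, SE 0.0855). AT3G25790, 1962 bp beyond *AOC3*, had 0.07 for H3K27me3 (edgeR FDR = 0.198, SE 0.0374). Farther out, *EDF3*, a gene of the RAV family of transcription factors, was called increased for both marks, with 0.52 for H3K27me3 (edgeR FDR = 7.82e-20, SE 0.0531) and 0.28 for H2A.Z (edgeR FDR = 0.042, SE 0.0901). Its H3K27me3 change was thus in the direction of the cyclases and its H2A.Z change was not.

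**Figure D4:**
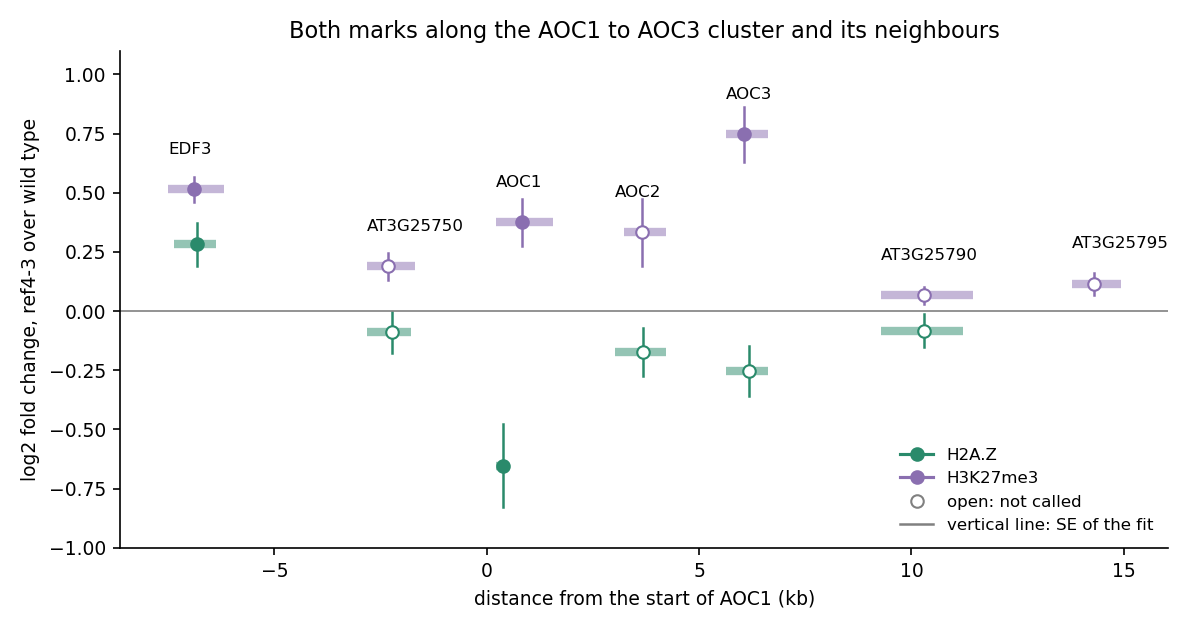
Log2 fold change of *ref4-3* over wild type for H3K27me3 (purple) and H2A.Z (green) against the distance from the start of *AOC1* in kb, with regions as horizontal bars, the SE as vertical lines and called regions as filled points. The H3K27me3 points of *AOC1*, *AOC2* and *AOC3* lie above 0 (0.37, 0.33 and 0.75) and the H2A.Z points below it (-0.65, -0.17 and -0.25).

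The called lipoxygenases and *OPR3* were also set beside their nearest genes with a counted region. For H2A.Z, AT1G17430, 624 bp beyond *LOX3*, had a log2 fold change of 0.03 (edgeR FDR = 0.941, SE 0.0823), and AT1G72530, 198 bp beyond *LOX4*, had -0.11 (edgeR FDR = 0.716, SE 0.117). AT2G06040, 3517 bp from *OPR3*, had 0.01 (edgeR FDR = 0.994, SE 0.0870). None of these was called, while *GRF6*, a growth-regulating factor 63801 bp from *OPR3*, was called decreased at -0.27 (edgeR FDR = 0.0399, SE 0.0839). On the other side, AT1G17400 at 14842 bp from *LOX3* had -0.06 and AT1G72500 at 9798 bp from *LOX4* had 0.20, neither called (edgeR FDR = 0.763 and 0.262). For H3K27me3, AT1G72490, 17406 bp from *LOX4*, was called decreased at -0.33 (edgeR FDR = 0.0001, SE 0.0716), opposite to *LOX4*, and AT1G72570, 18625 bp away, had 0.02 (edgeR FDR = 0.712, SE 0.0381).

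The steps before and after the core were covered by a list of 15 genes, of which 11 had an H2A.Z region. H2A.Z was called decreased at 3 of them, against 1.79% of all genes, and increased at none, against 2.9% of all. These were *FAD7*, a plastid desaturase that makes the linolenic acid, *OPCL1*, the ligase that readies the OPR3 product for beta-oxidation, and *JAR1*, the enzyme that joins jasmonate to isoleucine and so makes the active hormone. *FAD7* held 16.6 and 10.99 CPM in *ref4-3*, against 20.3 and 18.5 CPM in wild type, a log2 fold change of -0.47 (edgeR FDR = 0.0127, SE 0.133) in a region from a wild-type island only. *OPCL1* held 53.2 and 46.3 CPM in *ref4-3*, against 61.3 and 62.1 CPM in wild type, a log2 fold change of -0.31 (edgeR FDR = 0.00354, SE 0.0758). *JAR1* held 57.2 and 53.3 CPM in *ref4-3*, against 69.999 and 63.8 CPM in wild type, a log2 fold change of -0.27 (edgeR FDR = 0.00919, SE 0.0733). At all 3 the genotypes did not overlap, but none of them stayed called without *ref4-3* replicate 2 or without either wild-type library. The other 8 genes with a region, *FAD3*, *FAD8*, *DAD1*, *DGL*, *JASSY*, *ACX1*, *ACX5* and *JMT*, were not called, and *PXA1* and the beta-oxidation genes *MFP2*, *AIM1* and *KAT2* had no region of either mark.

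H3K27me3 was found at 3 of these 15 genes, the acyl lipase genes *DAD1* and *DGL* and the jasmonate methyltransferase gene *JMT*, and was called increased at 1 and decreased at none, against 5.52% and 7.7% of all genes. *DAD1*, which frees the fatty acid in anthers, held 258 and 264 CPM in *ref4-3*, against 210.45 and 210.42 CPM in wild type. The replicates were nearly equal, and the log2 fold change was 0.31 (edgeR FDR = 8e-11, SE 0.0435). Its H2A.Z region had a log2 fold change of 0.01 (edgeR FDR = 0.972, SE 0.0635). All 3 had H3K27me3 above the median density of all regions, at 113 CPM per kb for *DAD1*, 260 for *DGL* and 98.6 for *JMT* in wild type.

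The branch list held 5 relatives outside the core pathway: the lipoxygenase genes *LOX1* and *LOX5*, which oxidise another position of the fatty acid, the hydroperoxide lyase gene *HPL1*, and *OPR1* and *OPR2*. *LOX1*, *LOX5* and *HPL1* had H2A.Z in 6 regions, with log2 fold changes between -0.12 and 0.10, and none was called. They also had H3K27me3 in 5 regions, of which 1 was called decreased, against 7.54% of all regions, and 0 increased, against 5.43%. The called one was the last of *LOX1*, at 28.8 and 26.1 CPM in *ref4-3*, against 32.9 and 35.8 CPM in wild type (log2 fold change -0.33, edgeR FDR = 0.0268, SE 0.117). That region overlaps another gene, AT1G55030, so its fragments cannot be assigned to *LOX1* alone. The first and second regions of *LOX1* had log2 fold changes of 0.04 and 0.15, and with regions summed per gene *LOX1* was not called. *OPR1* and *OPR2* had no region of either mark.

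**Figure D5:**
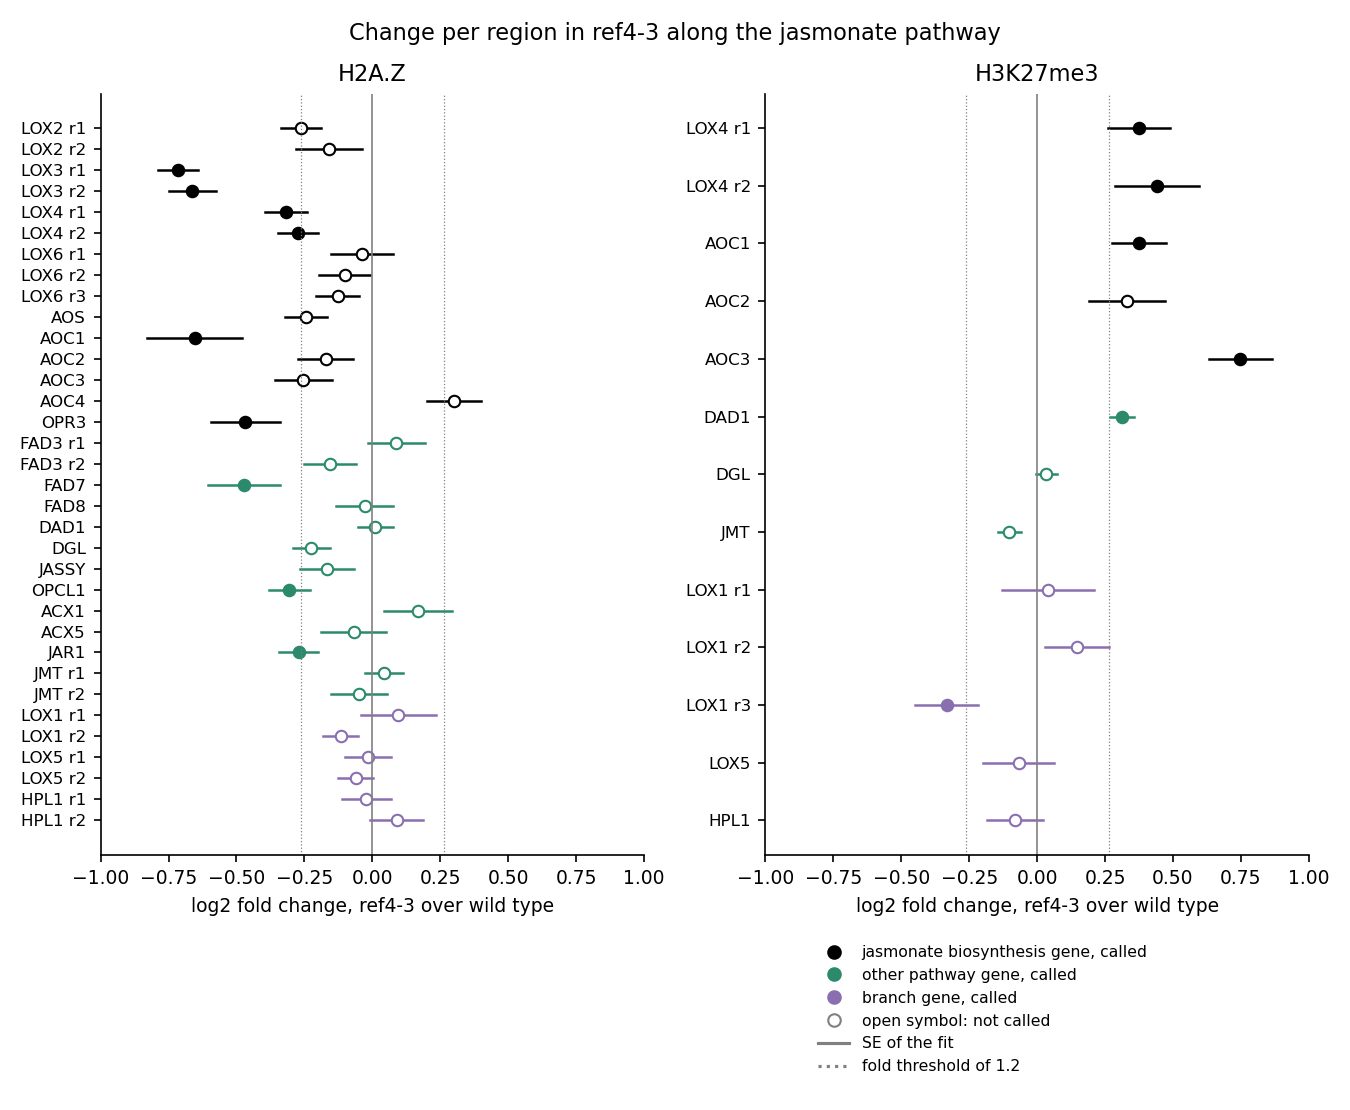
Log2 fold change of *ref4-3* over wild type per region, with the SE of the fit, for H2A.Z (left) and H3K27me3 (right) at the core genes (black), the steps before and after them (green) and the branch genes (purple), with called regions as filled points and the fold threshold of 1.2 as dotted lines. The filled H2A.Z points all lie below 0, and the filled H3K27me3 points lie above 0 except the last region of *LOX1*.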

How the data were processed

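ChIP-seq was performed on *ref4-3* and wild-type rosettes, with 2 libraries per genotype and mark. Per the labels, the authors trimmed reads with fastp 0.23.2, mapped them to TAIR10 with Bowtie2 2.2.1 and used SAMtools 1.17. Islands were called per replicate and on merged replicates, for which the labels name SICER and the study's methods name epic2. The methods also give another version of Bowtie2. The deposited count tables hold raw counts of fragments per region, neither normalized nor corrected for input. The deposited island score served to rank the islands of each list. The −log10 column was not used.

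Counts of each mark were tested over all regions with edgeR 4.0.16 in R 4.3.3, with trimmed-mean (TMM) factors and the exact test, at the study's thresholds. Total counts ranged from 5805781 to 10128759 per library. The scaling sets the typical region to no change, so a shift of a whole mark is not measurable. The alternatives were the quasi-likelihood F test (with and without a replicate block), DESeq2 1.42.0, other scalings, filters and thresholds, regions summed per gene, and each library left out, where a lone library is assumed to vary like the pair of the other genotype. The fit was tested on simulated data. With 2 libraries a side, the smallest two-sided p of an exact permutation is 0.333. The labels call the replicates biological but do not say whether plants were pooled across them.

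All region identifiers matched the TAIR10.1 annotation, and every region lay inside its gene there. Promoter windows were read from that genome. Copies were searched with blastn 2.17.0, as whole alignments of at least 95% identity over at least 100 bp. The genes and lists were chosen with earlier results of these data known. Named genes are the 10 core genes, the called genes of the other lists, and the nearest genes with a region beside a called gene. *EDF3* was named after its values were seen.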

Additional observations from a re-analysis of the deposited data

How the results depend on the processing

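The H2A.Z count of 4 core genes called decreased was 0 with DESeq2, 2 at a fold above 1.5, 2 with regions under islands of both genotypes (a setting added after the data were seen), and between 1 and 6 with each library left out. The H2A.Z count of core genes called increased, 0, became 1 (*AOC4*) with the quasi-likelihood F test, with library totals and with regions summed per gene, and was between 0 and 1 with each library left out. The H3K27me3 count of 3 core genes called increased was 1 with DESeq2 (*AOC3*), 1 at a fold above 1.5 and between 1 and 4 with each library left out. Of the other pathway and branch genes, the 3 called decreased for H2A.Z became 0 with DESeq2, 0 at a fold above 1.5 and between 0 and 3 with each library left out. The 1 called decreased for H3K27me3 became 0 with DESeq2, with regions summed per gene, at an FDR below 0.01 and at a fold above 1.5, and between 0 and 1 with each library left out. The 1 called increased for H3K27me3 became 0 at a fold above 1.5. Over all regions, DESeq2 called 0.0681% decreased for H2A.Z and 2.19% increased for H3K27me3. Shares over all regions at stricter thresholds, with regions summed per gene or with a library left out are not given here. The cause of these changes was not tested.

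Of 230 alternative values for the 20 regions of the core genes, 189 kept direction and call, 30 lost the call, 9 gained one and 2 reversed. The reversed values were for H2A.Z: 0.0791 at the first region of *LOX6* without *ref4-3* replicate 1 (range with each library left out, -0.15 to 0.0791) and 0.0903 at *AOC2* without *ref4-3* replicate 2 (range -0.5282 to 0.0903). With islands above the median score of their list, core genes with H2A.Z in *ref4-3* were 4 in place of 8, and those with H3K27me3 were 0 in place of 4 in *ref4-3* and 0 in place of 2 in wild type. With an overlap of at least 50% of the gene, the wild-type H3K27me3 number was 0. Same-numbered samples did not deviate together (correlation -0.025 for H2A.Z and 0.071 for H3K27me3), so no pairing by number was visible in the counts. This cannot show whether same-numbered samples were grown or handled together. With a replicate block in the quasi-likelihood F test, 4 core genes were called decreased for H2A.Z, where 1.61% of all regions were. For H3K27me3 4 were called increased, where 5.81% of all regions were, *AOC2* being added (0.34, quasi-likelihood adjusted p = 0.0351).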
